A study of Mus musculus with 8 samples.

Results

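The serum amyloid A genes of the mouse, Saa1, Saa2, Saa3 and Saa4, were followed in 8 livers. They were chosen by gene symbol, and 4 of the 55450 genes listed in the tables carry one of these names. The knockout livers (KO1 to KO4, named by genotype and title number) came from 4 mice labelled Cre+, in which Cebpa was deleted in hepatocytes. The control livers (WT1 to WT4) came from 4 mice that carried the same Cebpa flox/flox alleles and were labelled Cre-. All 8 mice started at 10 weeks of age with matched body weights. After 5 days on the liquid control diet they were fed liquid diet containing 5% (vol/vol) ethanol during 4 weeks. Both groups thus received ethanol, and the values compare genotypes under it and measure no response to it. The promoter that drives Cre is not given in the sources used here, and the labels do not say which livers share a litter or a day. The p-values below therefore measure only the spread between these livers.

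Serum amyloid A proteins are small apolipoproteins carried on high density lipoprotein. In the mouse, Saa1 and Saa2 are the major acute phase genes of the hepatocyte, induced by IL-6, IL-1 and TNF through STAT3, NF-kappaB and C/EBP factors, and their products are the precursors of amyloid A deposits. Saa3 is also inducible and is made by macrophages and adipocytes as well as by hepatocytes; its human counterpart is a pseudogene. Saa4 is the constitutive member, present on lipoproteins without inflammation. C/EBP alpha, the product of Cebpa, is one of the C/EBP factors of the differentiated hepatocyte, and the comparison asks how the levels of these genes differ where Cebpa is lost.

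The libraries held 21048350 to 28148744 expected counts per liver, the estimated counts by which RSEM divides reads shared between genes. Levels are given as the authors' TPM, which corrects for transcript length, or as CPM, counts scaled to a common library size with TMM factors; 1 count was worth 0.0341 to 0.0485 CPM. Cebpa was at 5.44 to 9.26 CPM in the KO livers and at 263.6 to 320.3 CPM in the WT livers, a pattern that followed the genotype labels in all 8. All 10 hepatocyte markers were detected, and their summed level was 120470 to 135310 CPM in KO and 100769 to 137021 CPM in WT livers. The largest part of that sum was Alb, with 8801427 counts over the KO and 7061717 over the WT livers. The mean log2 CPM of the 10 markers was 11.58 to 11.88 in KO and 11.89 to 12.03 in WT livers. By that mean, every KO liver was below every WT liver. One library stood apart: WT2 held the highest level of 21.3% of all 13303 tested genes, and the values of the Saa genes, and of other genes where it changes a call, are given with and without it.

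The 4 genes lie together on chromosome 7 of mm10, within 42.3 kb from 46711998 to 46754313, in the GENCODE M21 annotation. Saa3 (ENSMUSG00000040026.8, 46711998 to 46715700), Saa4 (ENSMUSG00000040017.8, 46727998 to 46732603) and Saa1 (ENSMUSG00000074115.5, 46740497 to 46742980) are on the minus strand. Saa2 (ENSMUSG00000057465.5, 46751790 to 46754313) is on the plus strand, so Saa1 and Saa2 are divergent, with 8.8 kb between them. No annotated gene overlaps any of the 4 on either strand. The pseudogene Saa-ps, between Saa4 and Saa1, had 0 counts in all 8 livers.

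Saa1, Saa2 and Saa3 were all highest in WT2, and Saa4 was not. The part of upstream sequence in these patterns was not tested. The sequences before the starts of the 4 genes are shown here. Each is the 250 bases before the RefSeq start of the gene (build GRCm38.p6), which for Saa2 and Saa3 is not the GENCODE start, 5′ to 3′ on the strand of the gene. Saa1 is at chr7:46742981-46743230 on the minus strand, Saa2 at chr7:46751583-46751832 on the plus strand, Saa3 at chr7:46715677-46715926 on the minus strand and Saa4 at chr7:46732604-46732853 on the minus strand. Capitals mark matches, on either strand, to the C/EBP letters TTNNGNAA or to the NF-kappaB consensus.
Saa1: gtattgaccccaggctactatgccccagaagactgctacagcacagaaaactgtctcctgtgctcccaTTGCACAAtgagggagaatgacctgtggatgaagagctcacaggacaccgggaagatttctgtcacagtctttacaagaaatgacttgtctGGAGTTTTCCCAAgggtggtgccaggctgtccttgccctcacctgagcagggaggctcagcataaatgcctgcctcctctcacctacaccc
Saa2: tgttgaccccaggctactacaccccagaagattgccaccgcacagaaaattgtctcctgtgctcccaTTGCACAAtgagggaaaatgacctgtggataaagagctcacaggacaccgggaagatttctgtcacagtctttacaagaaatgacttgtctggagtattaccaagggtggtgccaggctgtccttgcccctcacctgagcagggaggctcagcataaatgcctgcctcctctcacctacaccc
Saa3: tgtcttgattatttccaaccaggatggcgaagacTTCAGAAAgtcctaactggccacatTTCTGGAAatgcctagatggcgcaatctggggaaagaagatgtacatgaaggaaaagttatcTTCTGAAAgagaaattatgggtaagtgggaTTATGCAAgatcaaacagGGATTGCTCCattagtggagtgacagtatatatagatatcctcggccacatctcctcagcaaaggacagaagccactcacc
Saa4: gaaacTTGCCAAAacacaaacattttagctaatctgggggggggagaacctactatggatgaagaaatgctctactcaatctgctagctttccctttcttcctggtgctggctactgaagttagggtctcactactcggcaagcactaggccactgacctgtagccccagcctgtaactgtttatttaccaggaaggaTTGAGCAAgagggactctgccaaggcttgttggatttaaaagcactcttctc

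The upstream sequences of Saa1 and Saa2 were nearly the same: 238 of 249 aligned bases were identical (95.6%). That of Saa1 was 75.1% identical to that of Saa3 and 73.6% to that of Saa4, over aligned bases. Saa1 and Saa2 both held the C/EBP match TTGCACAA, ending 175 bases before the start in Saa1 and 176 in Saa2. Saa1 held a second C/EBP match, TTTCCCAA, which overlaps its NF-kappaB match GGAGTTTTCC, and Saa2 had neither at that place. Saa3 had 4 C/EBP matches and 1 NF-kappaB match, and Saa4 had 2 C/EBP matches and 0 NF-kappaB matches. The STAT letters TTCNNNGAA matched in none of the 4 windows. These short letters are common: of 32851 windows of the same length, 36.8% held the C/EBP letters, 23.2% the NF-kappaB consensus and 7.02% the STAT letters. A match is a run of letters and not a shown site.

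The transcripts of Saa1 and Saa2 are also alike, which bears on how reads were assigned. Their first annotated transcripts were identical at 572 of 606 aligned bases (94.4%), and 18.5% of all stretches of 75 bases in Saa1 transcripts occurred in Saa2 transcripts too. No stretch of that length in Saa3 or Saa4 transcripts occurred in another member. The expected counts matched this: those of Saa3 and Saa4 were whole in 8 of 8 livers (within 0.005), those of Saa1 and Saa2 in 1 of 8, and the sum of Saa1 and Saa2 in 8 of 8. Shared reads were thus divided between Saa1 and Saa2, which leaves their single levels uncertain, while the summed counts of the pair are the same however they are divided. The pair's summed TPM depends a little on the division, since TPM corrects for length. The lengths used were 611.2 to 630.5 bases for Saa1 and 631.2 to 650.7 bases for Saa2. RefSeq lists each of these 2 symbols among the older names of the other gene.

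Saa1 was at 68.8, 187.0, 87.8 and 78.6 TPM in KO1 to KO4, against 254.0, 11809, 179.3 and 46.6 TPM in WT1 to WT4. WT2 was far above every other liver, WT4 was the lowest of all 8, and the groups overlapped. Saa1 averaged 33.6 ± 16.2 CPM in KO and 1012 ± 1914 CPM in WT livers (SD, n = 4 each), with 95.5% of the WT counts in WT2. The log2 fold change, KO over WT, was -4.91 (SE 1.89), and the difference did not pass the test (edgeR quasi-likelihood test with Benjamini-Hochberg adjustment over all tested genes, adjusted p = 0.236). In WT2, Saa1 was the 11th most abundant of all genes by TPM, and in the other livers it ranked between 426 and 1746.

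Saa2 followed the same livers. It was at 33.0, 71.9, 24.6 and 43.0 TPM in KO1 to KO4, against 139.4, 9974, 74.6 and 15.6 TPM in WT1 to WT4. WT2 was again the highest and WT4 the lowest, with WT3 and KO2 close together. KO over WT, Saa2 had a log2 fold change of -5.95 with an SE of 2.21 (edgeR adjusted p = 0.222), and WT2 held 97.4% of the WT counts. Summed, the pair was at 101.9, 258.9, 112.4 and 121.6 TPM in KO livers and at 393.4, 21783, 253.9 and 62.2 TPM in WT livers. An exact two-sided permutation test over 70 splits on log2(TPM + 0.1) gave a difference of -2.14 with p = 0.343. Saa1 made up 70.6 ± 5.87% of the pair's TPM in KO and 66.1 ± 8.99% in WT livers (SD, n = 4 each, exact permutation p = 0.4), with the lowest share, 54.2%, in WT2.

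Saa3 was much less abundant. It was at 6.43, 9.57, 4.35 and 20.3 TPM in KO1 to KO4, against 25.6, 716.7, 25.0 and 5.12 TPM in WT1 to WT4. WT2 stood apart once more, KO3 was the lowest of the 8, and WT4 lay below 3 of the KO livers. The counts behind these values were few outside WT2, between 27 and 161 in KO livers and between 35 and 174 in the other WT livers. KO over WT, Saa3 had a log2 fold change of -4.28 with an SE of 1.67 (edgeR adjusted p = 0.242). Saa3 made up 3.56 to 14.3% of the TPM of the 3 inducible genes in KO livers, highest in KO4, and 3.19 to 8.95% in WT livers.

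Saa4 was the member whose groups did not overlap. It was at 4.75, 68.7, 55.3 and 33.3 TPM in KO1 to KO4, against 83.8, 93.8, 286.4 and 218.4 TPM in WT1 to WT4. Every KO liver was below every WT liver, KO1 lay far below the others, and WT2 held no excess. Saa4 averaged 56.9 ± 38.7 CPM in KO and 260.1 ± 147 CPM in WT livers (SD, n = 4 each), a level 4.57-fold lower in KO by the fit (log2 fold change -2.19, SE 0.79). The difference did not pass the test (edgeR adjusted p = 0.211). Since these are whole livers, fewer cells of a type and less RNA per cell cannot be told apart.

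**Figure D1:**
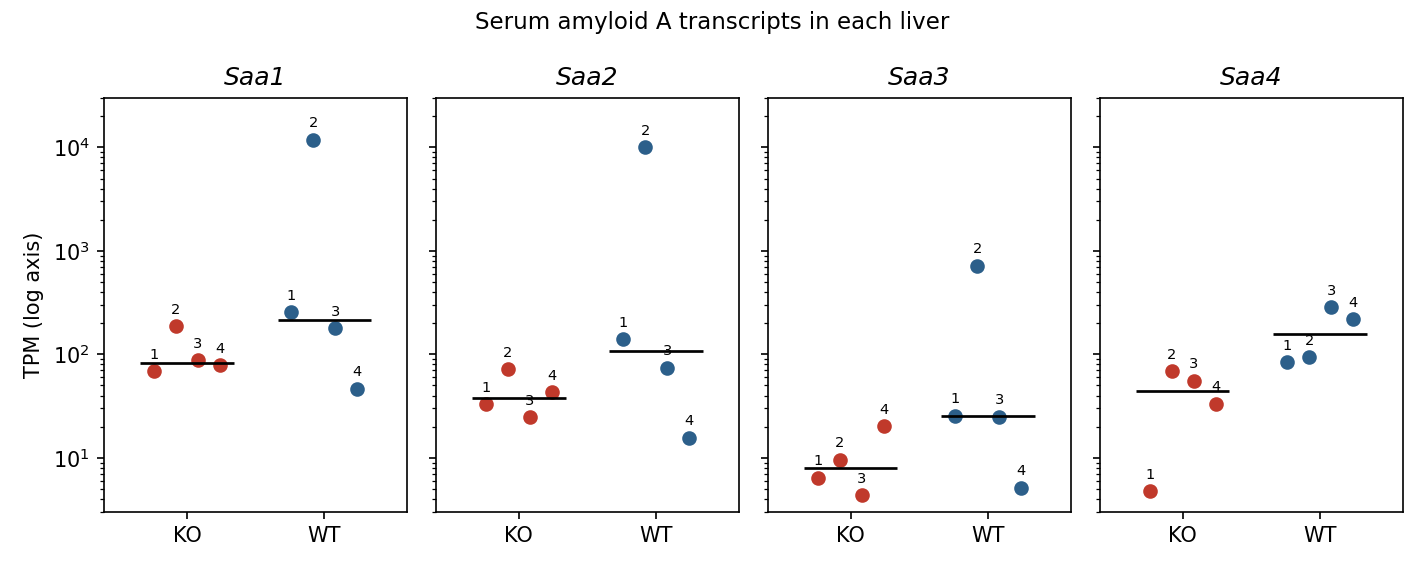
TPM of Saa1, Saa2, Saa3 and Saa4 (log axis) in the 4 KO livers (left, red) and the 4 WT livers (right, blue) of each panel; each point is 1 liver with its title number, and bars are group medians. WT2 is far above all other livers for Saa1, Saa2 and Saa3, at 11809, 9974 and 716.7 TPM, while for Saa4 all KO livers lie below all WT livers.

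Taken as a family, 0 of the 4 genes passed edgeR's adjusted threshold of 0.05, against 274 of 13303 tested genes (2.06%), of which 161 were lower in KO (1.21%) and 113 higher (0.849%). That balance turned to 115 lower and 161 higher with library size alone as the scaling, and to 86 lower and 151 higher with limma-trend on TPM. All 4 had an unadjusted p below 0.05 and a lower level in KO, as had 8.9% of tested genes. Without overlap between the groups and lower in KO was 1 of the 4, Saa4, against 5.92% of tested genes. DESeq2 called 0 of the 4. It gave Saa4 an adjusted p of 0.0671 and gave no p to Saa1, Saa2 and Saa3, because of an outlying count, as for 9 of the 13303 tested genes (0.0677%).

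How far apart the inducible genes were between genotypes rested on WT2. Without it, Saa1 averaged 33.6 ± 16.2 CPM in the 4 KO livers and 55.3 ± 36.8 CPM in the 3 WT livers (SD), with a log2 fold change of -0.72 (edgeR adjusted p = 0.644). That of Saa2 was -0.95 (adjusted p = 0.592), and that of Saa3 was -0.97 (adjusted p = 0.549). The corresponding value of Saa4 was -2.40 (adjusted p = 0.244). With WT2 in and no block, the edgeR values lie close to the log2 ratios of the group means. With the replicate block, edgeR gave -1.85, -2.10 and -2.42 for Saa1, Saa2 and Saa3 (adjusted p = 0.528, 0.574 and 0.509). Limma-voom, which averages logarithms, gave -2.14, -2.39 and -2.13 for Saa1, Saa2 and Saa3 (adjusted p = 0.537, 0.593 and 0.614) and -2.51 for Saa4 (adjusted p = 0.22). For Saa4, leaving out each liver in turn moved the log2 fold change between -2.53, without KO2, and -1.83, without KO1.

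**Figure D2:**
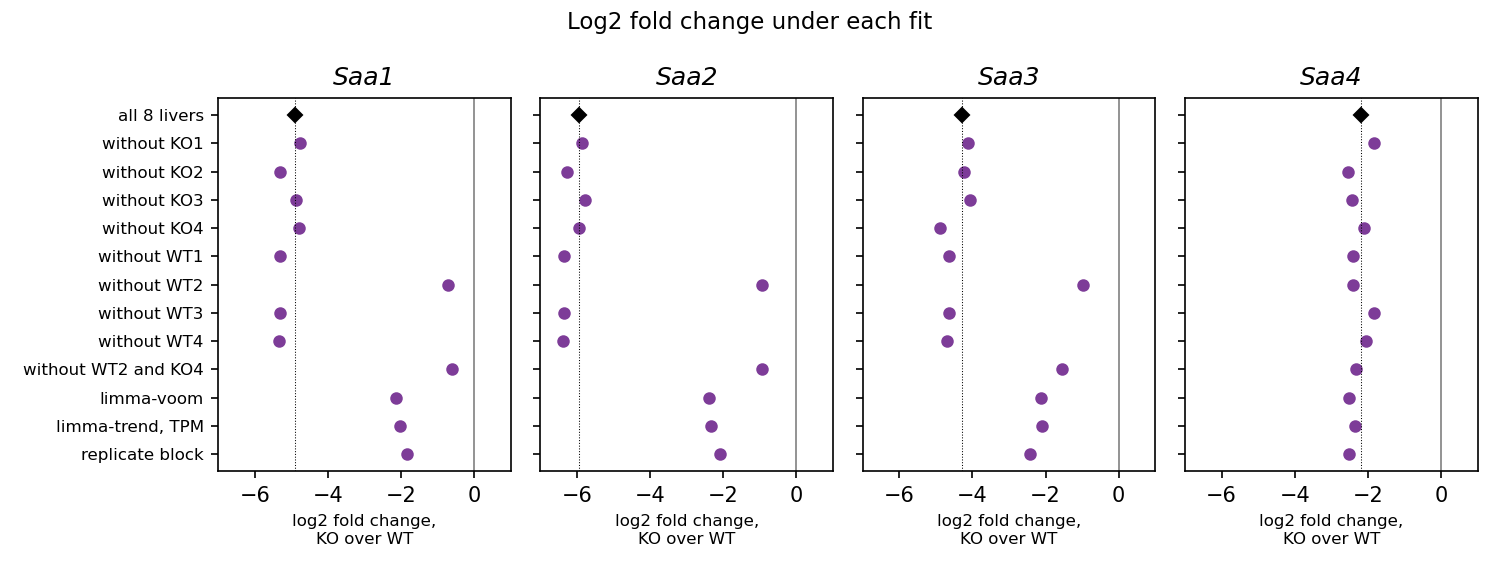
Log2 fold change, KO over WT, of each Saa gene (horizontal axis) under the fits named on the left; the black diamond is the fit to all 8 livers and purple points are the alternatives. The values of Saa1, Saa2 and Saa3 lie between -0.97 and -0.72 without WT2, while those of Saa4 lie between -2.53 and -1.83 in all fits drawn.

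WT2 differed from the other WT livers more in these genes than in nearly all others. Against the median of WT1, WT3 and WT4, its TPM was 65.9-fold higher for Saa1, 133.8-fold for Saa2 and 28.7-fold for Saa3. Ranked by the log2 CPM difference between WT2 and that median, Saa2 was first, Saa1 was 2nd and Saa3 was 5th of the 13303 tested genes. Added up, the 3 genes made up 2.25% of all TPM in WT2, against 0.0108 to 0.0269% in the KO livers and 0.00674 to 0.0419% in the other WT livers. Saa4 did not share this: in WT2 it was 2.33-fold lower than in the median of the other WT livers. KO1 was the counterpart for Saa4. Its 4.75 TPM was 11.7-fold below the median of KO2, KO3 and KO4, the 4th lowest such difference of all tested genes, whereas Saa1, Saa2 and Saa3 in KO1 were within 1.49-fold of their medians there.

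The balance between the inducible genes and Saa4 varied widely within each genotype. The TPM ratio of Saa1, Saa2 and Saa3 together to Saa4 was 22.8, 3.91, 2.11 and 4.27 in KO1 to KO4, against 5.00, 239.9, 0.974 and 0.308 in WT1 to WT4. In WT3 and WT4 Saa4 alone exceeded the sum of the other members, which was so in no KO liver. On the log2 scale the ratio averaged 2.40 ± 1.46 in KO and 2.12 ± 4.19 in WT livers (SD, n = 4 each), a difference of 0.28 with an exact permutation p = 0.914. The log2 sum of the 3 inducible genes alone averaged 7.21 ± 0.595 in KO and 9.34 ± 3.59 in WT livers (difference -2.13, p = 0.314, exact permutation). The smallest p that 70 splits allow is 0.0286. Without WT4, the lowest of the WT livers, the difference of this sum was -3.22 (exact permutation p = 0.0286). That test had fewer splits, and its p is the smallest they allow. Without WT2 the difference of the sum was -0.42.

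Genes with a like pattern over the 8 livers were sought by the Pearson correlation of log2 CPM, given as a description. The 8 highest for Saa1 were Saa2 (r = 0.993), Tcirg1 (0.974), Alg8 (0.973), Ssr4 (0.971), Pqlc1 (0.969), Hpx (0.963), Gm45716 (0.962) and C3 (0.96). Saa3 was 16th, at 0.949. Saa4 ranked 4733, at 0.218. Without WT2 and WT4, the livers farthest from the median of Saa1, r was 0.911 for Saa2, 0.592 for Saa3, 0.738 for Saa4 and 0.56 to 0.757 for the other 7 of those genes. Without KO1 and WT3, the livers farthest from the median of Saa4, r of Saa1 with Saa4 was 0.0814. For Saa4 the 5 highest were Dact1 (0.98), Arid5b (0.971), Ppp1r11 (0.949), Zbtb24 (0.948) and Irx3 (0.948). Without KO1 and WT3, r was 0.914 for Dact1, 0.936 for Arid5b, 0.701 for Ppp1r11, 0.755 for Zbtb24 and 0.776 for Irx3.

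**Figure D3:**
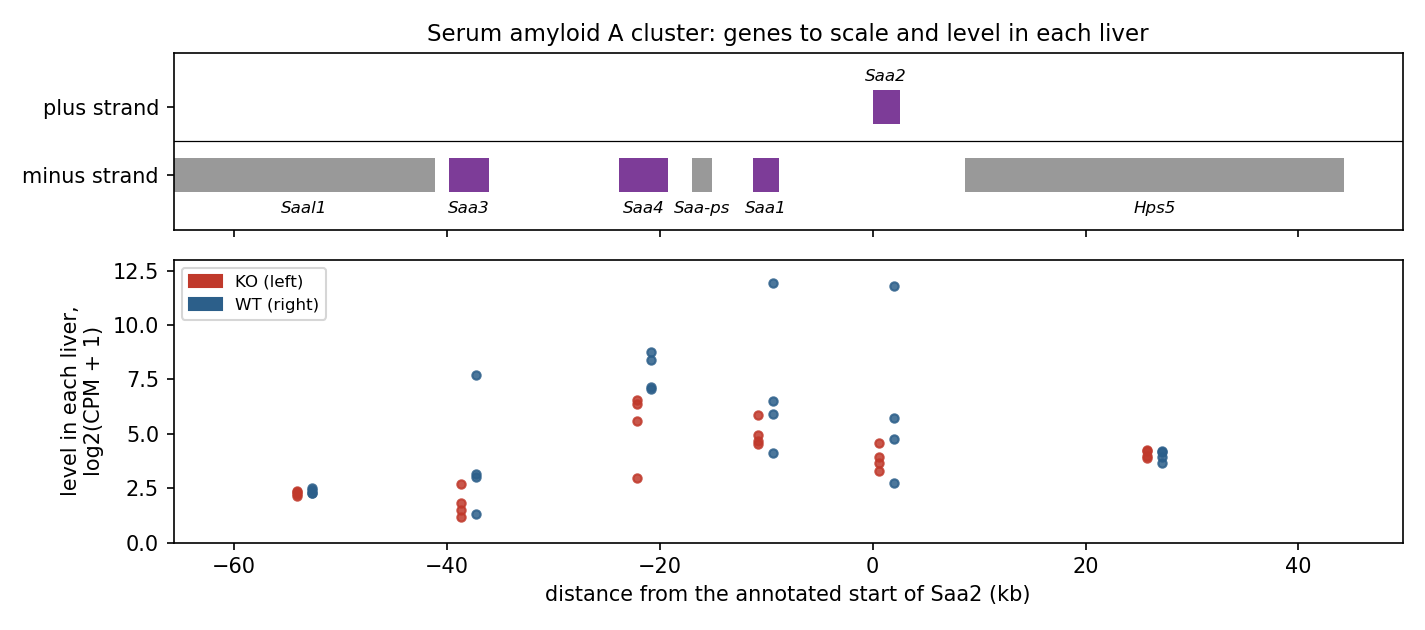
Upper panel, the Saa cluster drawn to scale by strand against the distance from the annotated start of Saa2 in kb, Saa genes in purple and neighbours in grey; lower panel, log2(CPM + 1) in each KO liver (left, red) and WT liver (right, blue) at the middle of each gene. The neighbours Saal1 and Hps5 stay between 3.43 and 4.60 CPM and between 11.6 and 17.9 CPM, while the 4 Saa genes spread widely.

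The flanking genes spread far less. Saal1, a gene named for its likeness to serum amyloid A, lies beside Saa3. It was at 3.84 ± 0.364 CPM in KO and 4.199 ± 0.367 CPM in WT livers (SD, n = 4 each, edgeR adjusted p = 0.663). Hps5, which encodes a subunit of a complex that forms lysosome-related organelles and lies beyond Saa2, was at 16.0 ± 2.05 CPM in KO and 15.1 ± 2.67 CPM in WT livers (SD, n = 4 each, edgeR adjusted p = 0.79).

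Other genes listed as positive acute phase genes were compared, because many of them are induced by the same cytokines. Whether these cytokines induce each member, Pzp and Hamp2 included, was not measured here. Of 28 tested, 24 had a lower level in KO and 4 a higher one, with a median log2 fold change of -0.53 against 0.00 over all tested genes. Orm1, orosomucoid 1, alone passed edgeR's test (log2 fold change -8.87, adjusted p = 0.0464), where 2.06% of all tested genes did. That call was lost without KO1, KO2, KO3, KO4, WT1 or WT3, with adjusted p up to 0.146. It was lost too with library size alone, with no filter, in limma-voom and with the replicate block (adjusted p = 0.0512, 0.0682, 0.138 and 0.125). Without WT2, 4 genes of the list were called lower, against 0.995% of all genes in that fit, and the median was -0.35. They were Orm1, Lbp, Lrg1 and Pzp, at log2 fold changes of -7.29, -0.79, -0.78 and -0.53 (edgeR adjusted p = 0.0259, 0.032, 0.0362 and 0.0418). With all livers, Lbp, Lrg1 and Pzp were at -1.26, -1.32 and -0.67 (edgeR adjusted p = 0.114, 0.125 and 0.0515). DESeq2 called 5 lower, against 3.38% of all tested genes, and gave no adjusted p to Orm2 and Lcn2. Orm1 and Pzp were among the 5 (DESeq2 adjusted p = 1.04e-11 and 0.000281). By edgeR, 13 had an unadjusted p below 0.05 and a lower level in KO, against 8.9% of all tested genes. WT2 held the highest level of 19 of the 28 (67.9%), against 21.3% of all tested genes. Lcn2, lipocalin 2, was at 1.26, 2.97, 1.33 and 2.28 CPM in KO1 to KO4, against 10.2, 190.2, 13.9 and 3.95 CPM in WT1 to WT4 (edgeR adjusted p = 0.158, and 0.0676 without WT2). Like the inducible Saa genes it was highest in WT2, and unlike them it did not overlap between the groups. The same held for Hp, haptoglobin, at 1266 to 1891 CPM in KO livers and 2043 to 8079 CPM in WT livers (edgeR adjusted p = 0.158, and 0.0703 without WT2).

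In that list, 9 of 28 genes, against 5.92% of all tested genes, were lower in every KO liver than in any WT liver: Orm1, Orm2, Hp, Lcn2, Lbp, Apcs, Cp, Lrg1 and Pzp. Of Saa1, Saa2 and Saa3, none was. Apcs, serum amyloid P, is a component of amyloid deposits. It was at 14.1, 12.3, 7.31 and 10.6 CPM in KO1 to KO4, against 18.0, 82.4, 16.8 and 22.03 CPM in WT1 to WT4 (log2 fold change -1.65, edgeR adjusted p = 0.199). Without WT2 its log2 fold change was -0.77 (adjusted p = 0.11). Hpx, hemopexin, overlapped between the groups as Saa1 did, since WT4 at 1853 CPM lay below KO2 and KO4, at 2005 and 2095 CPM. WT4 was the lowest of the WT livers for Orm1, Orm2, Lcn2 and Hp too, at 61.2, 1.995, 3.95 and 2043 CPM, though for these genes it stayed above all KO livers.

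**Figure D4:**
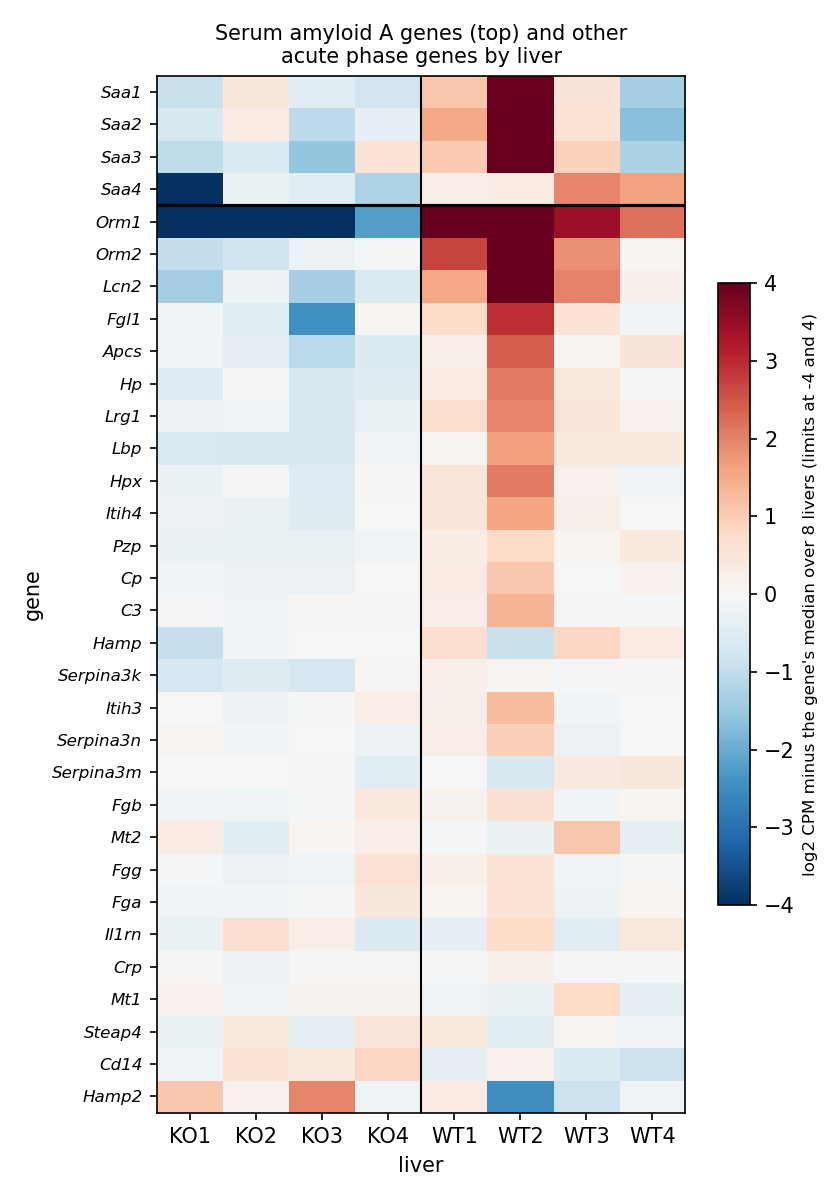
Log2 CPM of the 4 Saa genes (above the line) and of 28 other acute phase genes (below it, ordered by log2 fold change) minus each gene's median over the 8 livers, with colours limited at -4 and 4; KO livers are left of the vertical line and WT livers right of it. WT2 is the highest liver for Saa1, Saa2, Saa3 and 19 of the 28 other genes, and Saa4 is low in KO1 and highest in WT3.

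Upstream of these genes come the cytokines and their receptors. Of 19 receptors and transducers of IL-6, IL-1 and TNF, none passed edgeR's test, with a median log2 fold change of -0.08. By edgeR, 4 were lower in KO at an unadjusted p below 0.05, against 8.9% of all tested genes. DESeq2 called 2 lower, against 3.38%. Stat3, the transcription factor activated by IL-6, was at 81.3 ± 5.00 CPM in KO and 102.2 ± 7.09 CPM in WT livers (SD, n = 4 each, edgeR adjusted p = 0.0665). By edgeR it was called lower without KO4 (adjusted p = 0.0422) and without WT2 and KO4 (0.0482). DESeq2 called it lower with all livers (adjusted p = 0.00653). Socs3, a feedback inhibitor induced by STAT3, was at 2.61, 3.01, 3.98 and 4.40 CPM in KO1 to KO4, against 6.77, 12.8, 4.93 and 5.90 CPM in WT1 to WT4 (adjusted p = 0.104). DESeq2 called Socs3 lower with all livers (adjusted p = 0.0103). Socs3 was highest in WT2, as the inducible Saa genes were. Il6 itself had 2 counts over the 4 KO livers and 2 over the 4 WT livers, Tnf had 15 and 6, and neither could be tested. Of 8 cytokine genes 2 were tested, Il1b and Il1a, and none passed (2 higher in KO at an unadjusted p below 0.05, against 9.61% of all tested genes, DESeq2 0). Il1b was at 0.789 ± 0.379 CPM in KO and 0.317 ± 0.177 CPM in WT livers (SD, n = 4 each, edgeR adjusted p = 0.182).

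Transcription factors that act at serum amyloid A promoters were listed with Nfkbia, the gene of an NF-kappaB inhibitor. Of 15 tested, Cebpa alone passed edgeR's test, against 2.06% of all tested genes. Cebpa fell by 5.37 on the log2 scale (edgeR adjusted p = 4.78e-07). DESeq2 called 2 of the list higher and 1 lower, against 3.07% and 3.38% of all tested genes. The median of the list was -0.15. By edgeR, 3 were higher and 3 lower in KO at an unadjusted p below 0.05, against 9.61% and 8.9% of all tested genes. Those lower were Cebpa, Rel and Nr3c1, the last 2 at log2 fold changes of -0.30 and -0.22. Cebpb, C/EBP beta, which recognises the same sites, was at 173.7 ± 33.0 CPM in KO and 118.7 ± 24.5 CPM in WT livers (SD, n = 4 each, edgeR adjusted p = 0.132). Among the alternative fits, the lowest adjusted p of Cebpb was below 0.05. Cebpd, C/EBP delta, was at 14.6 ± 3.13 CPM in KO and 10.2 ± 5.25 CPM in WT livers (SD, n = 4 each, adjusted p = 0.484). Relb, an NF-kappaB subunit, was at 1.87 ± 0.361 CPM in KO and 0.983 ± 0.319 CPM in WT livers (SD, n = 4 each, edgeR adjusted p = 0.127). DESeq2 called Relb higher (adjusted p = 0.0488).

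Downstream, no receptor or binding partner of serum amyloid A passed edgeR's test, of 10 tested (0 at an unadjusted p below 0.05, DESeq2 0, median 0.32). Fpr2, a chemotactic receptor for the protein, had 0.513 ± 0.246 CPM in KO and 0.408 ± 0.208 CPM in WT livers (SD, n = 4 each, edgeR adjusted p = 0.74). The scavenger receptor gene Cd36 was at 151.5, 171.8, 112.5 and 84.8 CPM in KO1 to KO4, against 95.3, 25.9, 144.1 and 134.8 CPM in WT1 to WT4 (adjusted p = 0.722), and was lowest in WT2. Of 15 genes of high density lipoprotein, none passed (median -0.05). By edgeR, 3 were lower in KO at an unadjusted p below 0.05, against 8.9% of all tested genes. DESeq2 called 1 lower, Apom (adjusted p = 0.0318), against 3.38%. Apom, a lipocalin of that particle, was at 69.7, 64.1, 77.0 and 81.3 CPM in KO1 to KO4, against 109.8, 196.2, 87.2 and 96.8 CPM in WT1 to WT4 (edgeR adjusted p = 0.152, and 0.0475 without WT2 and KO4). Of 9 genes of amyloid formation and serum amyloid A breakdown, none passed (DESeq2 0, median 0.12). By edgeR, 2 were higher and 1 lower in KO at an unadjusted p below 0.05, against 9.61% and 8.9% of all tested genes.

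Markers of other cells that make Saa3 were looked at beside it. All 12 macrophage and Kupffer cell markers had a higher level in KO, and none passed edgeR's test (5 at an unadjusted p below 0.05, against 9.61% of all tested genes higher in KO; DESeq2 1, against 3.07%; median log2 fold change 0.55). Their summed level was 319.6 to 530.7 CPM in KO and 200.3 to 413.0 CPM in WT livers, the highest WT value being that of WT2. Of 8 adipocyte markers, Adipoq, Plin1, Lep and Retn had 0 counts in all 8 livers. The other 4 had no called member (2 higher in KO at an unadjusted p below 0.05, DESeq2 0, median 0.63). The list summed to 2204 to 4136 CPM in KO and 1142 to 4935 CPM in WT livers, lowest in WT2. Nearly all of that sum was Car3, with 338436 counts over the KO and 341763 over the WT livers. The sum thus describes Car3 and is no measure of adipocytes. Without WT2, 1 of the 4 tested markers, Cfd, was called higher in KO, against 0.693% of all genes in that fit (log2 fold change 2.25, edgeR adjusted p = 0.0343). With all livers it was at 2.65 (edgeR adjusted p = 0.105). The part of these cells in the levels of Saa3 was not tested.

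The remaining marker lists are given for the make-up of the samples. Of 10 neutrophil markers, Ly6g had 0 counts and 1 was tested, with no call; the list summed to 1.08 to 2.41 CPM in KO and 0.52 to 2.14 CPM in WT livers. The cholangiocyte list had 3 of 7 tested genes called higher in KO, Epcam, Spp1 and Krt19, against 0.849% of all tested genes. Its median was 1.14, and it summed to 129.1 to 373.7 CPM in KO and 34.8 to 73.8 CPM in WT livers. Most of that sum was Spp1, at 107.3 to 353.2 CPM in KO and 21.3 to 58.1 CPM in WT livers. The mean log2 CPM of the 7 tested genes was 1.93 to 2.23 in KO and 0.56 to 1.41 in WT livers. With 1 liver left out, the call of Epcam was lost without KO1, KO2, WT3 or WT4 (adjusted p up to 0.0705). That of Spp1 was kept only without KO3 or WT2 (up to 0.0892), and that of Krt19 only without WT2 (up to 0.119). The 10 stellate cell markers (median 0.45) and the 10 endothelial markers (median 0.24) had no edgeR call. By edgeR, 4 and 2 were higher in KO at an unadjusted p below 0.05, against 9.61% of all tested genes. DESeq2 called 0 of either list, but gave no adjusted p to 2 of the stellate cell markers, Col3a1 among them. The sums of the stellate cell and endothelial lists were 222.0 to 481.6 and 201.1 to 271.8 CPM in KO, against 130.6 to 248.5 and 169.3 to 213.5 CPM in WT livers. Of 10 lymphocyte markers only Ighm was tested, at 13.4 ± 14.5 CPM in KO and 2.02 ± 1.32 CPM in WT livers (SD, n = 4 each, edgeR adjusted p = 0.158; DESeq2 called it higher), and the list summed to 5.12 to 36.2 CPM in KO and 2.33 to 5.06 CPM in WT livers. Of the 10 hepatocyte markers, Serpina1a was called lower in KO (2.82-fold, edgeR adjusted p = 0.00364), against 1.21% of all tested genes. The median of the hepatocyte list was -0.23. The part of cell make-up in the Saa values was not tested.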

How the data were processed

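RNA was sequenced from poly(A) RNA of 8 livers with a stranded mRNA kit, per the labels. Build mm10 and the tools RSEM 1.2.22, STAR 2.5.1, Trimmomatic 0.36, Picard 1.84 and DESeq2 are credited to the submitters' processing notes. Neither the strand setting of the counting nor the annotation release is stated there. The authors deposited RSEM expected counts, TPM and FPKM per gene, with transcript lengths; FPKM was not used. A deposited series table held identical expected counts.

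Groups and numbers came from the titles. Expected counts were rounded and fitted with edgeR 4.0.16 in R 4.3.3: filterByExpr (minimum count 10, total 15; 13303 genes tested), TMM factors, robust quasi-likelihood test, two-sided, Benjamini-Hochberg adjustment, threshold 0.05. The SE is the log2 fold change over the root of F. Log2 CPM used a prior count of 2, and TPM sums a pseudocount of 0.1. Alternatives used limma 3.58.1, DESeq2 1.42.0 and other scalings, filters and sets of livers. All pairs of livers of 1 genotype differed by more than sampling noise. Steps were tested on simulated data; figures used matplotlib 3.10.9.

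The members and the 15 gene lists were chosen with earlier results of these data known. The rule named the 4 genes, Cebpa, neighbours, called list members with the 2 smallest p per list, and the 8 and 5 genes most like Saa1 and Saa4 (47 genes). Another 12, such as Lcn2 and Hp, were picked with their values in view. The promoter motifs are textbook motifs of C/EBP, NF-kappaB and STAT factors.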

Additional observations from a re-analysis of the deposited data

Results flagged for a closer look

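Of 136 sets of 4 livers examined with Dixon's test at the 95% level, those below had 1 liver far from the other 3 of its genotype; chance flags about 1 in 20. Among the members, WT2 stood far above the other WT livers for Saa1 (3883 CPM, the others 16.4 to 89.5), Saa2 (3490 CPM, the others 5.59 to 51.9) and Saa3 (204.4 CPM, the others 1.52 to 7.85). The same liver was flagged for the TPM sums of Saa1 and Saa2 (21783), of these with Saa3 (22500) and of all 4 (22593), and for the TPM ratio of the inducible genes to Saa4 (239.9, the others 0.308 to 5.00). KO2 was flagged for the sum of Saa1 and Saa2 (258.9 TPM, the others 101.9 to 121.6), and KO1 for the ratio to Saa4 (22.8, the others 2.11 to 4.27). These sums and this ratio are built from the values of the 4 genes. Their flags add no separate support to those of the genes.

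Among other genes, WT2 was high for Orm1 (1413 CPM), Orm2 (340.6 CPM), Lcn2 (190.2 CPM), Hp (8079 CPM), Hpx (8680 CPM), C3 (14114 CPM), Lbp (145.8 CPM), Apcs (82.4 CPM), Lcat (429.8 CPM), Pqlc1 (57.7 CPM) and Tlr4 (1.65 CPM). KO4 was high for Orm1 (2.76 CPM), Pzp (3976 CPM) and Lbp (43.3 CPM), KO3 for Lcat (324.5 CPM), KO2 for Hspg2 (26.5 CPM) and Col3a1 (129.2 CPM), and KO1 for Ighm (34.9 CPM). KO1 was low for Tcirg1 (17.7 CPM) and Zbtb24 (8.40 CPM). Hpx, C3, Pqlc1 and Tcirg1 were named for their likeness to Saa1 over these same livers, and Zbtb24 for its likeness to Saa4. Orm2, Lcn2, Hp, Lbp and Tlr4 were picked with their values in view. The chance rate given above does not hold for the flags of these genes, which add no separate support. The cause of the flagged values was not tested.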

How the results depend on the processing

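In every fit that gave a value, Saa1, Saa2, Saa3 and Saa4 kept a lower level in KO and stayed above the adjusted threshold. Across all alternatives the log2 fold change ran from -5.33 to -0.59 for Saa1, -6.37 to -0.95 for Saa2, -4.87 to -0.97 for Saa3 and -2.53 to -1.83 for Saa4, and the lowest adjusted p for any of them was 0.0671, for Saa4 by DESeq2. The summed TPM of the inducible genes passed its test without WT4 alone (-3.22, exact permutation p = 0.0286); leaving out 1 liver gave -3.22 to -0.42. Their log2 ratio to Saa4, 0.28 with all livers, ran from -0.99 to 2.21 with 1 liver left out, with the sign turned without KO1 (-0.41), WT3 (-0.44) or WT4 (-0.99). Genes called higher and lower numbered 113 and 161; DESeq2 gave 409 and 449, the fit without WT2 and KO4 gave 185 and 246, limma-trend on TPM gave 151 and 86, library size alone 161 and 115, and the replicate block 78 and 98. Leave-one-out fits gave 46 to 167 higher and 61 to 205 lower. Values close to 0 turned sign for Saal1 (0.036), Tcirg1 (0.052) and Ppp1r11 (0.018) in limma-trend on TPM, for Hps5 (-0.024; 0.156 without WT4) and Alg8 (0.037; -0.293 without WT4) without WT2, and for Alg8 (0.035) and Gm45716 (0.023) without WT2 and KO4; the cause was not tested. Same-numbered livers deviated together at correlations of 0.207, 0.00904, -0.0243 and -0.0672 for numbers 1 to 4. Only for KO1 was the same-numbered liver the best match among the WT livers. Such correlations cannot tell whether livers of 1 number share a litter or a day. With the replicate block the log2 fold change was -1.85, -2.10, -2.42 and -2.52 for Saa1 to Saa4 (edgeR adjusted p = 0.528, 0.574, 0.509 and 0.2), and an exact test by sign flips within numbers cannot go below p = 0.125. A library size without TMM scaling moved the median of all genes to 0.073.

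Orm1 lost its call in 10 of 18 alternatives, 6 of them among the 8 fits that left out 1 liver. Outside WT2, Saa3 rested on 27 to 174 counts per liver, which limits its precision.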
